A study of Oryza sativa Japonica Group with 30 samples.

Results

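Leaves of rice plants that overexpress SNAC1 were compared under drought and under normal watering, and the transcripts that moved within this one genotype are described here. The comparison holds the 6 RNA-Seq libraries of the overexpression line, 3 from drought (SNAC1-D) and 3 from normal conditions (SNAC1-N), out of 12 RNA-Seq libraries and 30 samples in all. They were chosen by their labels alone. The other 6 RNA-Seq libraries came from the parent variety Zhonghua 11 (ZH11) under drought (ZH11-D) and normal conditions (ZH11-N), and are described only where the overexpression line is set beside them. They also enter the filter on low values and the estimate of spread that all 4 groups share. All plants were seedlings at the 4-leaf stage. For the drought groups watering was stopped for 10 to 15 days, until leaves rolled and yellowed. SNAC1-OE and ZH11 plants, 10 of each, shared a pot. The overexpression line is OE-19, a single transgenic line that carries the full SNAC1 coding sequence behind a maize ubiquitin promoter, which is active in most tissues. Values from it therefore describe 1 line and not the construct in general. Expression was measured as FPKM, the number of fragments of a transcript scaled to its length and to all fragments mapped in the library.

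When soil dries, plants accumulate the hormone abscisic acid (ABA). ABA binds its receptors, the receptors inhibit the PP2C phosphatases, and the SnRK2 kinases thus released activate bZIP transcription factors at ABA-responsive promoters. SNAC1 is a NAC transcription factor that the native plant induces under drought, mainly in guard cells. In a line with a constitutive SNAC1 transgene the rest of this network can be read while the transcript of SNAC1 itself is already high before the soil dries.

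SNAC1 (LOC_Os03g60080) was read first. Its FPKM in SNAC1-N replicates was 764, 995 and 781, and in SNAC1-D replicates 667, 981 and 747. The groups overlapped, and each of the 6 values was above all ZH11 libraries. ZH11-N held 27.2, 44.8 and 39.7 FPKM and ZH11-D held 329, 530.3 and 429.8. Within the overexpression line the log2FC was -0.09, with a 95% interval of -0.68 to 0.49 (limma, adjusted p = 0.772). An exact permutation test gave p = 0.5, where 3 libraries against 3 allow no p below 0.1. Leaving out either SNAC1-D replicate 1 or SNAC1-N replicate 2 turned the sign, to a log2FC of 0.03. FPKM counts fragments from the transgene and from the native gene together. The q-PCR primers for SNAC1, OsPP2C49, OsABA8ox1 and OsBZR1 are shown because they fix which stretch of each transcript such an assay reads. Capitals mark the 18 bases that the SNAC1 forward primer shares with a primer for cloning a part of the SNAC1 coding sequence, so this primer, too, lies in a stretch that the transgene holds.
SNAC1 forward: TGGGAGAAGATGCAGCAGg
SNAC1 reverse: cgggaaggggtcgttgt
OsPP2C49 forward: ggcttattctcttcctcctctat
OsPP2C49 reverse: agtaaattctttgcgacgatgat
OsABA8ox1 forward: caacggcctccccatga
OsABA8ox1 reverse: tttttgtctccctgttcggttt
OsBZR1 forward: cgagcaaaaaagatggttcctt
OsBZR1 reverse: cattgaccagtactgatctaacaacaac

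One library of the overexpression line stood apart from its group, and so did the library of the same number in ZH11. Over the 19979 features tested, SNAC1-N replicate 1 had a Spearman correlation of 0.878 and 0.892 with replicates 2 and 3, which reached 0.977 with each other. The 3 SNAC1-D libraries reached 0.968 to 0.984. The first principal component of the 6 libraries, with 80.7% of the variance, separated drought from normal conditions, and the second, with 13.1%, separated SNAC1-N replicate 1 from all others. Between ZH11-N replicate 1 and the others of its group the correlation was 0.868 and 0.885, beside 0.974. The deviations of both first replicates from their group means had a Pearson correlation of 0.882 across features, and the labels do not say whether a number marks a shared pot or harvest. Genes of light response and the circadian clock were among those that set it apart. For the blue-light photoreceptor gene OsFKF1 the 3 SNAC1-N values, in replicate order, were 52.9, 0.801 and 0.999 FPKM, beside 3.34, 4.05 and 3.88 in SNAC1-D. For the clock gene OsPRR1 the values were 31.2, 4.02 and 3.86 against 4.43, 5.06 and 6.88. In the same library OsSIG5, a sigma factor of chloroplast transcription, was at 6.87, 360.2 and 201 against 108, 119 and 127. For each of these 3 genes the drought libraries lay between SNAC1-N replicate 1 and the other SNAC1-N replicates. Counts of the lists by role that changed by more than 1 gene without SNAC1-N replicate 1, and changed calls of genes named by rule, are given below. The fit without it keeps ZH11-N replicate 1. The part of these libraries in the results was not tested otherwise, and the labels give no time of harvest.

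**Figure D1:**
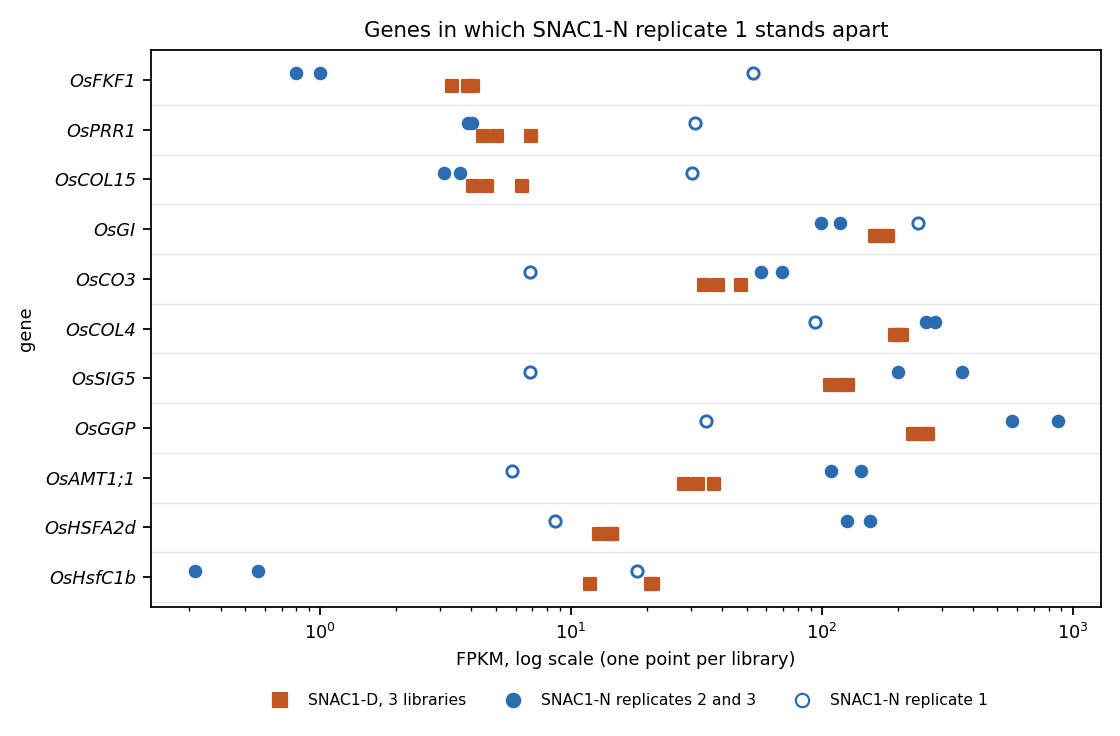
FPKM on a log scale of 11 genes in the 3 SNAC1-D libraries (squares), in SNAC1-N replicates 2 and 3 (filled circles) and in SNAC1-N replicate 1 (open circles), one point per library. The genes were picked after their values were seen, and in each the open circle lies outside the range of the filled ones (OsFKF1 52.9 against 0.801 and 0.999).

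A large part of the leaf transcriptome moved with drought. Features averaging 1 FPKM or more over the 12 libraries were tested, 19979 in all, and 6201 (31.0%) were differentially expressed genes (DEGs). A DEG changed by a log2FC of 1 or more in either direction with a Benjamini-Hochberg adjusted p under 0.05 in limma. Of these, 2633 (13.2% of those tested) were higher and 3568 (17.9%) lower in SNAC1-D. At this threshold the falls were more numerous, and rises prevailed among the largest changes. With no log2FC threshold the order turned, with 5577 features higher and 5086 lower at an adjusted p under 0.05 in limma. At a log2FC of at least 2 in size there were 1023 higher and 1650 lower DEGs, at 4 the counts were 258 and 242, and at 6 they were 96 and 33. The higher DEGs made up 5.48% to 6.08% of the summed FPKM in the SNAC1-N libraries and 31.6% to 40.6% in SNAC1-D. The lower DEGs went from 38.9% to 42.5% down to 8.67% to 14.6%. In 70 features every SNAC1-N library was under 0.5 FPKM and every SNAC1-D library at 5 or more, and in 72 features the reverse was found. FPKM is a share of each library, so these values say nothing about the amount of RNA per leaf. In bulk leaves, fewer cells of a type and less RNA of a gene per cell cannot be told apart. The median log2FC of all features was 0.07. With median ratio scaling it was -0.04 and the higher DEGs were 36.7% of all DEGs instead of 42.5%, and with quantile normalization the median was 0.12. Without SNAC1-N replicate 1 the DEGs numbered 6766 (33.9%), of which 5761 were among the 6201, 440 were lost and 1005 were new.

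The named genes were sorted into 33 lists by role, with 307 genes tested. Of these, 91 were higher (29.6%) and 45 lower (14.7%), beside 13.2% and 17.9% over all features. The lists hold genes that the study names among its published SNAC1-bound genes or in its text, many of them studied for their part in stress. Members and lists were also chosen with earlier results of these data known. The shares here and in each list below therefore describe the lists only. A count within a list refers to these members and not to a whole gene family or pathway. Of the 136 calls, 105 held under every alternative that was run, and without SNAC1-N replicate 1 there were 17 calls lost, 18 new and none with another direction, for 83 higher and 54 lower genes. The alternatives named beside a gene below are not always all of those that changed its call.

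**Figure D2:**
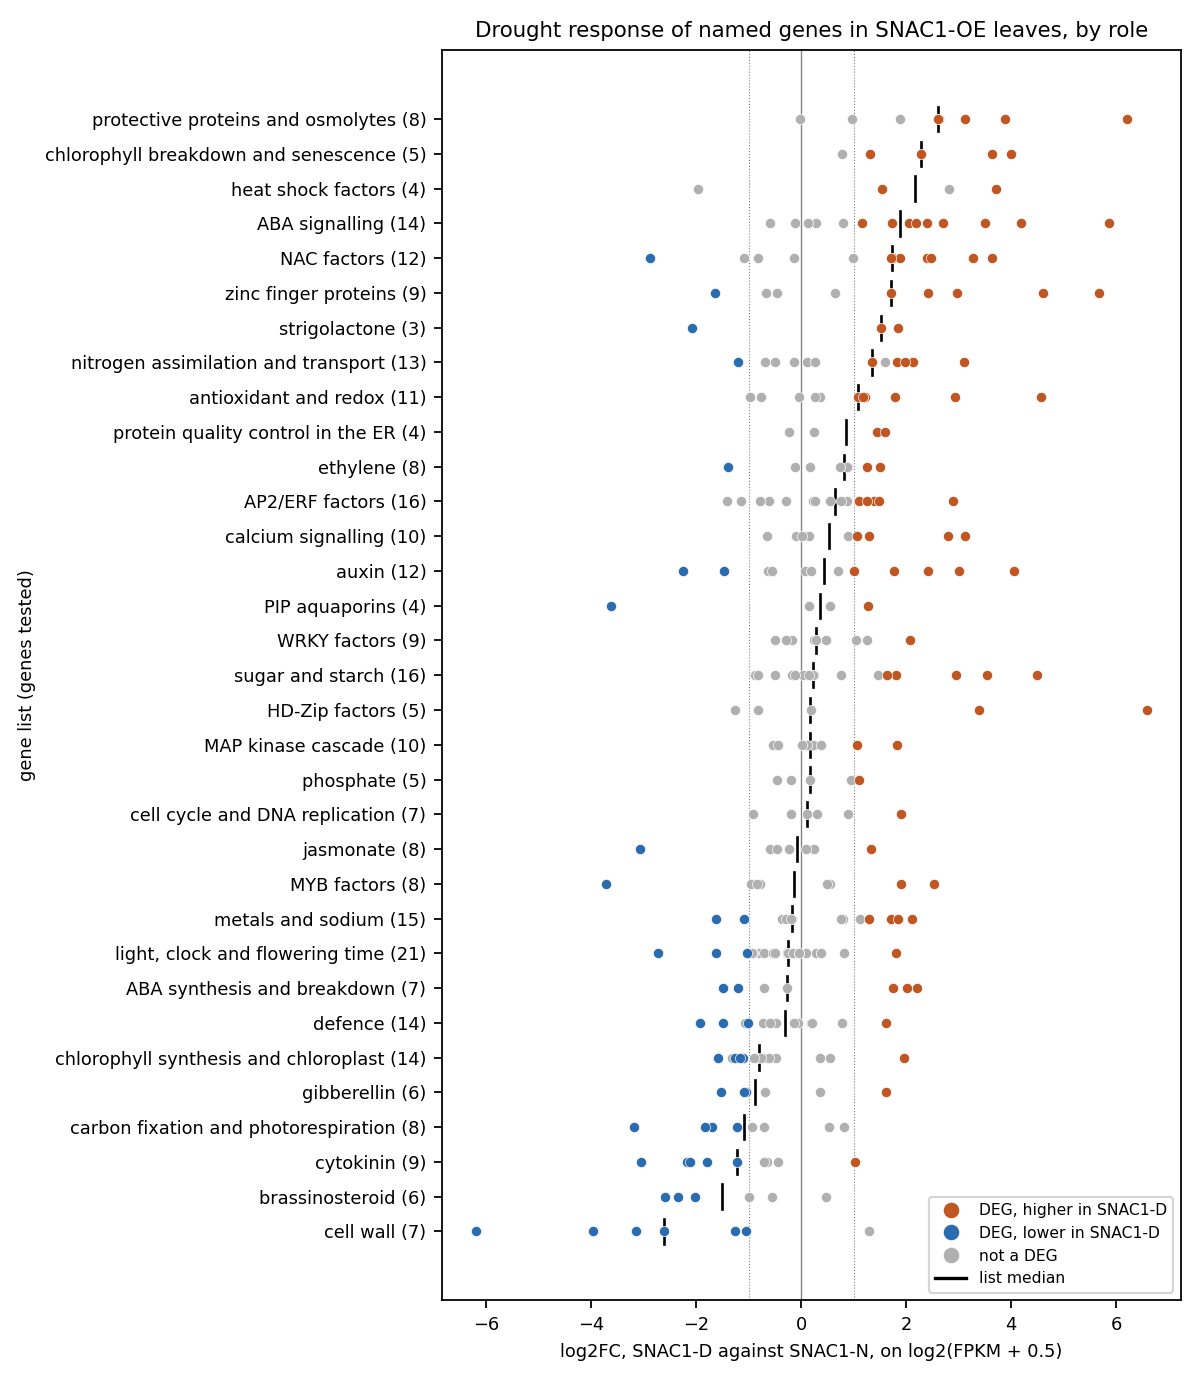
log2FC between SNAC1-D and SNAC1-N for the tested genes of 33 lists, ordered by the list median (black line), with the number of tested genes in brackets. Higher DEGs are orange, lower DEGs blue and other genes grey, and dotted lines mark a log2FC of 1 in size. Protective proteins and chlorophyll breakdown are at the top with medians of 2.61 and 2.28, and cell wall genes at the bottom with -2.61.

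Genes of ABA synthesis and of ABA breakdown both rose, and others of each fell. Of 7 tested genes, 3 were higher (42.9%) and 2 lower (28.6%), beside 13.2% and 17.9% over all features. The median log2FC was -0.26. OsNCED3 encodes a dioxygenase of the committed step of ABA synthesis. Its FPKM was 3.1, 7.17 and 7.25 in SNAC1-N and 22.4, 29.5 and 19.7 in SNAC1-D (log2FC 2.01, SE 0.35, adjusted p = 8.36e-04). DSM2, a carotene hydroxylase that feeds the same pathway, went from 8.37, 11.2 and 11.1 to 46.4, 58.8 and 42.7 (log2FC 2.21, SE 0.15, adjusted p = 3.12e-06). The groups of both genes were clearly apart. By contrast OSZEP1, the zeaxanthin epoxidase between these steps, fell from 135, 354 and 267 to 94.8, 78.7 and 77.5 (log2FC -1.48, SE 0.36, adjusted p = 0.00628). On the side of breakdown the hydroxylase gene OsABA8ox1 rose from 2.8, 5.31 and 5.82 to 15.3, 18.9 and 14.2 (log2FC 1.74, SE 0.27, adjusted p = 3.91e-04). Its paralog OsABA8ox3 fell from 17.8, 61.7 and 46.1 to 16.3, 15.1 and 16.1 (log2FC -1.20, SE 0.41, adjusted p = 0.0312), a call that ended without SNAC1-D replicates 1, 2 or 3 or SNAC1-N replicates 2 or 3 (log2FC -1.22 to -0.84, adjusted p 0.0635 to 0.118) or in a fit of the 6 SNAC1-OE libraries alone (adjusted p 0.0659). The phytoene synthase genes PSY1 and PSY2, which start carotenoid synthesis, passed no test (log2FC -0.26 and -0.72), and PSY2 was among the genes set apart in SNAC1-N replicate 1, with 10.1, 181 and 122 in SNAC1-N and 38.8, 35.8 and 36.8 in SNAC1-D.

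In the ABA signalling list all 5 PP2C genes and 3 of 5 bZIP genes rose, while its receptor gene and both its kinase genes were not called. The list does not hold these whole families. Of its 14 tested genes 9 were higher (64.3%) and 0 lower, beside 13.2% and 17.9% over all features. The median log2FC was 1.89. The phosphatase genes are themselves ABA targets and damp the pathway. OsPP2C51 went from 2.06, 2.85 and 2.2 to 139.7, 202 and 161 (log2FC 5.87, SE 0.32, adjusted p = 8.79e-07) and OsPP2C49 from 12.8, 16.9 and 14.8 to 246, 311 and 282 (log2FC 4.19, SE 0.15, adjusted p = 5.38e-08). For both, each drought library was more than 10 times the highest library of normal conditions. The rises of OsPP2C50, OsPP2C09 and OsPP2C06 were smaller, with log2FC values of 2.19, 2.05 and 1.73. Among the bZIP activators, OsbZIP23 rose from 10.2, 18.9 and 17.3 to 102, 106 and 93 (log2FC 2.70, SE 0.23, adjusted p = 1.19e-05) and OsbZIP10 from 7.11, 13.9 and 13.7 to 112, 149.8 and 134 (log2FC 3.51, SE 0.29, adjusted p = 9.91e-06). OsbZIP05 rose as well (log2FC 2.4, adjusted p = 6.40e-04). OsbZIP71 (0.13) and OsbZIP72 (0.29) passed no test. The receptor gene RCAR5 was at 43.1, 32.5 and 31.4 against 28.8, 37.6 and 31.4 (adjusted p = 0.647). Of the kinase genes, SAPK2 had a log2FC of -0.60 and SAPK4 of 0.80, both with an adjusted p under 0.05 and both short of the threshold of 1. MODD, which promotes the breakdown of the OsbZIP23 protein, rose from 6.49, 11.5 and 10.2 to 17.8, 27.3 and 18.8 (log2FC 1.15, SE 0.31, adjusted p = 0.0101), and its call ended without SNAC1-D replicate 2 or SNAC1-N replicate 1 (log2FC 0.92 to 0.96, adjusted p 0.0333 to 0.0452). OSVP1, an ABA response factor of seeds, was below the filter with an FPKM of 0 to 0.228.

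**Figure D3:**
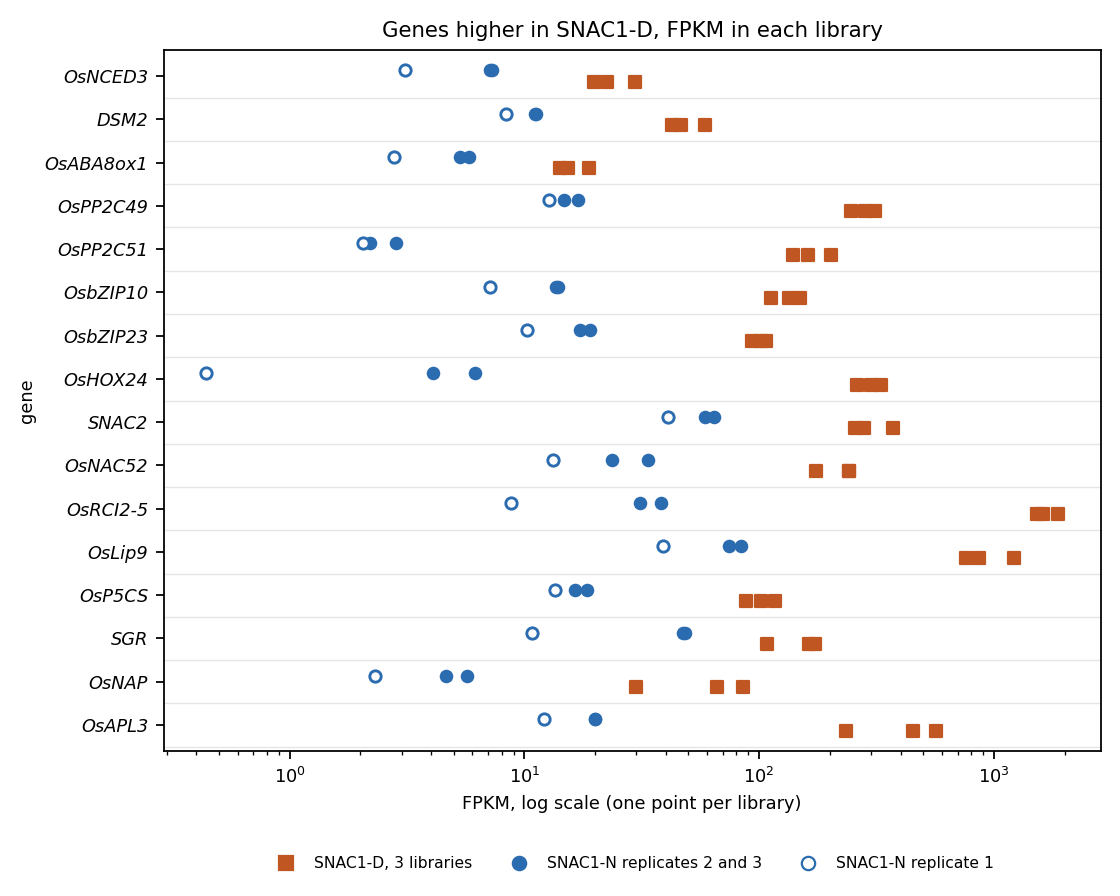
FPKM on a log scale of 16 genes that were higher in SNAC1-D, one point per library, with SNAC1-D as squares, SNAC1-N replicates 2 and 3 as filled circles and SNAC1-N replicate 1 as open circles. In all 16 the squares lie to the right of every circle, and for OsPP2C49, OsPP2C51, OsHOX24, OsRCI2-5 and OsAPL3 the lowest square is over 10 times the highest circle. Some of these genes were named by a rule that asks for groups without overlap.

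Other NAC genes rose, whereas SNAC1 passed no test. Of 12 tested NAC genes, 7 were higher (58.3%) and 1 lower (8.33%), beside 13.2% and 17.9% over all features. The median log2FC was 1.74. SNAC2, a close relative with a role in cold and salt tolerance, went from 41, 64 and 58.6 to 280.3, 372 and 256 (log2FC 2.47, SE 0.32, adjusted p = 1.39e-04). OsNAC52 went from 13.3, 33.6 and 23.5 to 241, 242 and 175 (log2FC 3.27, SE 0.30, adjusted p = 2.01e-05) and OsNAC5 from 12.9, 16 and 10.8 to 79.5, 76.2 and 58.3 (log2FC 2.39, SE 0.24, adjusted p = 3.36e-05). OsNAP, a NAC factor that promotes leaf senescence, rose from 2.32, 4.65 and 5.72 to 85, 66.4 and 29.9 (log2FC 3.64, SE 0.43, adjusted p = 8.64e-05). The OMTN genes are NAC targets of the microRNA miR164. Among them OMTN3 rose (log2FC 1.75, adjusted p = 8.82e-05), OMTN6 fell from 16.6, 15.4 and 21.6 to 1.74, 2.41 and 1.8 (log2FC -2.88, SE 0.34, adjusted p = 8.82e-05) and OMTN2 had a log2FC of -0.13. OsNAC10 (log2FC 1.72, adjusted p = 0.0438) and ONAC131 (log2FC 1.88, adjusted p = 0.022) were called higher, but the former lost its call without SNAC1-D replicates 1, 2 or 3 or SNAC1-N replicates 1 or 2 (log2FC 1.25 to 1.87, adjusted p 0.0713 to 0.135) and the latter without SNAC1-D replicates 1, 2 or 3 or SNAC1-N replicate 1 (log2FC 1.38 to 1.92, adjusted p 0.0512 to 0.0716). OsNAC10 also lost its call with a pseudocount of 0.1, without a filter on low values or with median ratio scaling (adjusted p 0.0535 to 0.0714). OsNAC10 and ONAC131 lie in the duplicated ends of chromosomes 11 and 12 and can share fragments. OsNAC4 (log2FC 1.0, adjusted p = 0.011) was just short of the fold threshold, with 1.26, 2.08 and 2.49 against 2.79, 6.36 and 4.28, and passed it without SNAC1-D replicate 1 or SNAC1-N replicates 2 or 3 (log2FC 1.05 to 1.26, adjusted p 0.00312 to 0.0233). ONAC095 (-1.10) and ONAC022 (-0.83) passed no test, and ENAC1 was below the filter. Without SNAC1-N replicate 1 the list had 5 higher genes.

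Among the remaining transcription factor families the largest rise was in the HD-Zip family. OsHOX24, an HD-Zip factor induced by drought, had an FPKM of 0.442, 4.08 and 6.17 in SNAC1-N and 299, 332 and 261 in SNAC1-D (log2FC 6.60, SE 0.73, adjusted p = 5.81e-05). Its relative Oshox22 rose from 14.9, 92.6 and 77.5 to 441, 568 and 521 (log2FC 3.40, SE 0.72, adjusted p = 0.00283). The other 3 HD-Zip genes were not called, but HOX12 was called lower in a fit of the 6 SNAC1-OE libraries alone (log2FC -1.26, adjusted p = 0.0148). Of 9 zinc finger genes, 5 rose, led by the neighbouring genes ZFP182 (1.7, 0.74 and 1.37 to 93.3, 113 and 63.3, log2FC 5.67, SE 0.36, adjusted p = 2.10e-06) and ZFP15 (1.43, 0.43 and 0.318 to 34.7, 37 and 15.6, log2FC 4.61, SE 0.66, adjusted p = 2.70e-04). OsRZFP34, a ring finger gene, went from 36.4, 102 and 109 to 519, 661 and 589 (log2FC 2.98, adjusted p = 3.54e-04). DST, a zinc finger factor that restrains stomatal closure, fell from 137, 134 and 145 to 66.7, 30.5 and 42.7 (log2FC -1.64, SE 0.29, adjusted p = 0.00105), while its co-activator DCA1 rose (log2FC 1.71, adjusted p = 0.0043). In the AP2/ERF list 5 of 16 genes were higher (31.2%) and 0 lower, beside 13.2% and 17.9% over all features. OsRap2.6 went from 3.37, 2.89 and 4.59 to 27.5, 42.5 and 22.5 (log2FC 2.90, SE 0.29, adjusted p = 3.02e-05), and the rises of OsDRAP1 (1.47) and OsERF922 (1.39) were smaller. The DREB genes OsDREB1A, OsDREB1B and OsDREB2B, named for cold and dehydration responses, were not called (log2FC -1.42, -0.79 and 0.27). OsDREB1A was called lower with a replicate block (adjusted p = 0.0485) and in the fit of the SNAC1-OE libraries alone (adjusted p = 0.0421), and the lower genes of the AP2/ERF list then numbered 1 and 2. Of 8 MYB genes, 2 were higher and 1 lower. OsMYB1R1 (log2FC 2.52, adjusted p = 1.41e-05) and Osmyb2 (log2FC 1.90, adjusted p = 0.00404) rose, and OsMYB2P-1, known from phosphate starvation, fell from 13.5, 25.9 and 21.3 to 2.05, 0.547 and 0.824 (log2FC -3.72, SE 0.51, adjusted p = 2.03e-04). Without SNAC1-N replicate 1 the MYB list had 3 lower genes against 2 higher ones, with OsMYBS2 (log2FC -1.10) and OsMYB55 (-1.07) added. A single WRKY gene of 9 was called (11.1%), beside 31.0% over all features. This gene, OsWRKY71, went from 12.1, 7.39 and 10.8 to 43.2, 60.4 and 30.9 (log2FC 2.07, SE 0.46, adjusted p = 0.00354). Without SNAC1-N replicate 1 OsWRKY24 was a second (log2FC 2.02, adjusted p = 0.0273).

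In the list of protective proteins and osmolytes 5 of 8 genes were higher (62.5%) and none lower, beside 13.2% and 17.9% over all features. Of the 5, 3 encode protective proteins and 2 encode enzymes of amino acid metabolism. The list had a median log2FC of 2.61. OsRCI2-5 encodes a small hydrophobic membrane protein. It had an FPKM of 8.78, 30.9 and 38.2 in SNAC1-N and 1621, 1878 and 1527 in SNAC1-D (log2FC 6.22, SE 0.52, adjusted p = 1.07e-05). Its relative OsLti6b went from 67.7, 71 and 96.4 to 660.0, 764 and 627 (log2FC 3.13, SE 0.19, adjusted p = 1.64e-06), and the dehydrin gene OsLip9 from 38.8, 74.2 and 83.8 to 864, 1221 and 759.6 (log2FC 3.89, SE 0.45, adjusted p = 7.34e-05). The rule that picked these 3 genes from the list asks for groups without overlap, so their separation is no added evidence. OsP5CS, the gateway enzyme of proline synthesis, rose from 13.5, 16.4 and 18.5 to 88, 117 and 102 (log2FC 2.63, SE 0.23, adjusted p = 1.52e-05). OsGAD1, a glutamate decarboxylase, rose too (log2FC 2.6, adjusted p = 2.40e-04). OsINO1-1, which makes inositol phosphate, had 15.4, 236 and 147 against 298, 309.8 and 293 and was not called (adjusted p = 0.154). The arginine decarboxylase gene OsADC1 had a log2FC of -0.03. OsLEA5 (log2FC 0.96) passed the fold threshold without SNAC1-D replicate 1 or SNAC1-N replicate 1 (log2FC 1.05 to 1.16, adjusted p 0.00551 to 0.0121).

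In the redox list 6 of 11 genes were higher (54.5%) and 0 lower, beside 13.2% and 17.9% over all features. OsSRO1c, a regulator of hydrogen peroxide in guard cells that is a described target of SNAC1, went from 2.12, 5.06 and 5.0 to 108, 132 and 75.2 (log2FC 4.57, SE 0.50, adjusted p = 5.12e-05). AOX1a, the alternative oxidase of mitochondria, went from 5.63, 4.69 and 5.98 to 40.1, 57.7 and 39 (log2FC 2.94, SE 0.26, adjusted p = 1.32e-05). The thioredoxin gene OsTRXh1 was abundant before drought and rose from 663, 864 and 890.3 to 2572, 3248 and 2538 (log2FC 1.79, SE 0.28, adjusted p = 5.05e-04). OsAPX1, an ascorbate peroxidase, rose by a log2FC of 1.08, and this value was 0.96 with median ratio scaling and 0.94 with quantile normalization, both under the threshold. The list had 4 higher genes without SNAC1-N replicate 1. The call of OsGpx3 ended without SNAC1-N replicate 1 (log2FC 0.91, adjusted p 0.0117), and so did that of OsGRXS17 (log2FC 0.85, adjusted p 0.0215).

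Lists of heat shock factors, MAP kinases and calcium signalling had rises and no falls, with the exception given below. Over all features 13.2% were higher and 17.9% lower. Of 10 MAP kinase genes 2 were higher, and of 10 calcium signalling genes 4 were. These lists are short, and the absence of falls was not tested against the shares over all features. Of 4 heat shock factor genes 2 rose, with OsHsfB2b at 2.4, 12.1 and 10.5 against 77.3, 105 and 108 (log2FC 3.71, SE 0.59, adjusted p = 5.17e-04) and OsHsf23 at a log2FC of 1.53 (adjusted p = 9.45e-04). OsHSFA2d was at 8.64, 155 and 126 against 14.6, 12.9 and 14.6 and was called lower only without SNAC1-N replicate 1 (log2FC -3.27, adjusted p = 0.0092). OsHsfC1b, at 18.3, 0.315 and 0.566 against 11.9, 21.2 and 20.8, was called higher without the same library (log2FC 4.26, adjusted p = 0.0172). OsbZIP60 and OsbZIP39, membrane-bound factors of the response to unfolded protein in the ER, rose by 1.60 and 1.44 on the log2 scale. In the MAP kinase list OsMPK5, a negative regulator of defence that favours stress tolerance, went from 5.6, 6.05 and 7.51 to 19.9, 31 and 21.6 (log2FC 1.82, SE 0.31, adjusted p = 7.29e-04). OsBWMK1 was called at a log2FC of 1.07, and its value was under 1 with median ratio scaling and without SNAC1-D replicate 2 or SNAC1-N replicate 1 (log2FC 0.97 to 0.99, adjusted p 0.00109 to 0.00187). In calcium signalling OsCIPK15, a kinase that calcineurin B-like proteins activate, went from 4.3, 1.54 and 4.48 to 24.5, 28.4 and 22.6 (log2FC 2.81, SE 0.38, adjusted p = 1.92e-04). Like OsNAC10, it lies in a duplicated chromosome end and can share fragments. The calmodulin-like gene OsMSR2 was at 16.3, 0.949 and 1.3 against 31.5, 36.1 and 23.8 (log2FC 3.11, SE 1.03, adjusted p = 0.0269) and lost its call without SNAC1-D replicates 1, 2 or 3 or SNAC1-N replicates 2 or 3 (log2FC 2.47 to 3.28, adjusted p 0.0534 to 0.0981). The calcium channel gene OsTPC1 went from 16.9, 14.3 and 15.3 to 37.8, 38.4 and 39.1 (log2FC 1.28, adjusted p = 1.91e-05).

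Genes of chlorophyll breakdown rose, and some of synthesis and carbon fixation fell. All but 1 of the 5 genes of chlorophyll breakdown and senescence were higher (80.0%) and none lower, beside 13.2% and 17.9% over all features. The median log2FC was 2.28. SGR encodes the stay-green protein that opens chlorophyll breakdown. It went from 10.8, 47.5 and 48.4 to 172, 163 and 108 (log2FC 2.28, SE 0.61, adjusted p = 0.00987). NYC3, which acts on a later product, went from 16.3, 31.8 and 29 to 70.3, 66.6 and 50.6 (log2FC 1.31, SE 0.28, adjusted p = 0.00313). OsCV, which directs chloroplast proteins to vesicles and the vacuole, went from 17.7, 2.96 and 7.43 to 179, 119.7 and 92.8 (log2FC 3.99, SE 0.77, adjusted p = 0.00163), and OsNAP was given above. NYC1, a chlorophyll b reductase gene, had 85.4, 36.8 and 39.5 against 104, 90.3 and 66.3 and was called only without SNAC1-N replicate 1 (log2FC 1.15, adjusted p = 0.048).

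Of 14 genes of chlorophyll synthesis and the chloroplast, 4 were lower (28.6%) and 1 higher (7.14%), beside 17.9% and 13.2% over all features. There were 6 lower genes without SNAC1-N replicate 1, with OsCRD1, OsFtsH2 and OsIspF added and OscpSRP43 lost. OsCHLH, a subunit of the magnesium chelatase, fell from 133, 300.0 and 275 to 93.1, 61 and 70.6 (log2FC -1.59, SE 0.38, adjusted p = 0.00558), and OsMGD, which makes a membrane lipid of chloroplasts, from 19.9, 28.9 and 27.3 to 11, 10.1 and 9.45 (log2FC -1.26, SE 0.23, adjusted p = 0.00117). The ferredoxin gene Fd fell (log2FC -1.17, adjusted p = 0.00407), and its log2FC was just short of the threshold without SNAC1-N replicate 2 (log2FC -1.0, adjusted p 0.0183). The gene that rose was OsIM1, a terminal oxidase of plastids (7.04, 7.7 and 6.95 to 24.4, 36.1 and 29.4, log2FC 1.96, SE 0.28, adjusted p = 2.68e-04). In carbon fixation and photorespiration 4 of 8 genes were lower and none higher. The carbonic anhydrase gene OsCA1 fell from 5113, 11398 and 11062 to 1353, 735 and 856 (log2FC -3.19, SE 0.50, adjusted p = 4.91e-04). GLO3, a glycolate oxidase of photorespiration, went from 464, 781 and 672 to 198, 162 and 169 (log2FC -1.83, SE 0.27, adjusted p = 2.98e-04), and the chloroplast aldolase gene OsAld-Y from 568, 825 and 1004 to 283, 205 and 232 (log2FC -1.71, SE 0.35, adjusted p = 0.00216). The drought libraries of these 3 genes all lay below the libraries of normal conditions. The rule that picked them from the list asks for groups without overlap, so this separation is no added evidence. OsSHM1 was called lower with overlapping groups (304, 868 and 775 against 318, 212 and 236) and lost its call without SNAC1-D replicates 1, 2 or 3 or SNAC1-N replicates 2 or 3 (log2FC -1.40 to -0.95, adjusted p 0.0578 to 0.158) or in a fit of the 6 SNAC1-OE libraries alone (adjusted p 0.0605) or with a replicate block (adjusted p 0.0585). The regulatory protein gene OsCP12 had a log2FC of 0.53. The sum of 8 leaf marker genes, most of them from these lists, was 7889 to 15590 FPKM in SNAC1-N and 2355 to 3446 in SNAC1-D. The 4 root marker genes summed to 144 to 217 FPKM in SNAC1-N and 72.2 to 94.6 in SNAC1-D, nearly all from the nitrate transporter gene OsNPF2.4. The 4 floral marker genes summed to 17.8 to 27.3 and 15.8 to 21.8, and no marker was at 0 in all libraries of a group. Their part in the results was not tested.

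Genes for starch and sugar turnover rose in part. Of 16, 5 were higher (31.2%) and 0 lower, beside 13.2% and 17.9% over all features. OsAPL3 encodes a large subunit of ADP-glucose pyrophosphorylase, the enzyme of the first step of starch synthesis. It went from 12.1, 20.1 and 20.0 to 234, 453 and 566 (log2FC 4.49, SE 0.47, adjusted p = 4.11e-05). The vacuolar invertase gene OSINV3 went from 11.4, 60.9 and 75.1 to 549, 362 and 441 (log2FC 3.54, SE 0.87, adjusted p = 0.00638), and OsMST4, a monosaccharide transporter, from 6.98, 18.3 and 15.1 to 93.7, 129 and 82.6 (log2FC 2.95, SE 0.37, adjusted p = 1.17e-04). The starch debranching gene ISA3 (log2FC 1.80, adjusted p = 5.16e-04) and the phosphorylase gene Pho1 (log2FC 1.64, adjusted p = 0.00461) rose less. In the nitrogen list 6 of 13 genes were higher (46.2%) and 1 lower (7.69%). OsLKR, the first enzyme of lysine breakdown, went from 2.99, 5.51 and 8.24 to 47.1, 59.1 and 40.7 (log2FC 3.10, SE 0.43, adjusted p = 2.20e-04). OsAlaAT1, an alanine aminotransferase, rose by 2.13 and the urea transporter gene OsDUR3 by 2.11 on the log2 scale. OsNPF2.4 fell from 140.3, 210.3 and 185 to 88.5, 67 and 73 (log2FC -1.21, SE 0.27, adjusted p = 0.00346). Of the phosphate genes only OsSPX-MFS1 was called (log2FC 1.11, adjusted p = 0.0128), and its log2FC was 0.99 with median ratio scaling and 0.79 without SNAC1-N replicate 1.

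The 4 water channel genes of the list split, with 1 higher and 1 lower. OsPIP2;7, a plasma membrane aquaporin, fell from 1120.0, 409 and 214 to 75.1, 17.6 and 37.7 (log2FC -3.63, SE 0.94, adjusted p = 0.00832), with the widest spread in the SNAC1-N libraries. OsPIP1;3 rose from 11.2, 30.2 and 28 to 43.2, 57.8 and 56.5 (log2FC 1.28, SE 0.42, adjusted p = 0.025), and lost its call without SNAC1-D replicates 2 or 3 or SNAC1-N replicate 1 (log2FC 0.83 to 1.22, adjusted p 0.0714 to 0.0746). The more abundant OsPIP1;1 was at 805, 1513 and 1645 against 1465, 1359 and 1364 and OsPIP1;2 at 992, 2028 and 2118 against 2251, 2551 and 2359, with an adjusted p of 0.756 and 0.275. Of 15 genes for metals and sodium, 4 rose (26.7%) and 2 fell (13.3%), beside 13.2% and 17.9% over all features. The ferritin genes OsFER1 and OsFER2, which store iron, rose from 91.5, 71.6 and 96.3 to 386, 421 and 313 (log2FC 2.11, SE 0.29, adjusted p = 2.20e-04) and from 71.5, 58 and 71.4 to 239.7, 244 and 181 (log2FC 1.71, SE 0.26, adjusted p = 3.47e-04). They are near-identical copies on chromosomes 11 and 12 and can share fragments. OsNHX1, the vacuolar sodium and proton exchanger, went from 17.5, 11.4 and 17.6 to 61, 56.1 and 51.9 (log2FC 1.85, SE 0.21, adjusted p = 7.64e-05). OsYSL16, a transporter of metal complexes, fell (log2FC -1.63, adjusted p = 0.00602), as did OsZIP8 (log2FC -1.09, adjusted p = 0.00431), whose log2FC was above -1 without SNAC1-D replicate 3 or SNAC1-N replicates 1 or 3 (log2FC -0.99 to -0.96, adjusted p 0.0147 to 0.0215).

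Falls outnumbered rises in the cytokinin and brassinosteroid lists. Of 9 cytokinin genes, 5 were lower (55.6%) and 1 higher (11.1%), beside 17.9% and 13.2% over all features. The median log2FC was -1.22. The response regulator gene OsRR2, a primary target of cytokinin, fell from 42.9, 57.5 and 52.8 to 6.4, 4.59 and 6.05 (log2FC -3.06, SE 0.17, adjusted p = 8.79e-07) and OsRR1 from 24.5, 14.5 and 13.8 to 4.75, 3.03 and 2.97 (log2FC -2.13, SE 0.24, adjusted p = 6.43e-05). LOG, which releases the active hormone, fell from 123, 427 and 416 to 59.5, 74.1 and 52.5 (log2FC -2.18, SE 0.50, adjusted p = 0.00458), and the synthesis gene OsIPT7 from 3.82, 2.36 and 2.58 to 0.315, 0.555 and 0.557 (log2FC -1.80, adjusted p = 4.29e-04). The receptor gene OsHk3 rose by 1.03 on the log2 scale, under the threshold with median ratio scaling (0.92) and without SNAC1-N replicate 1 (0.97). In the brassinosteroid list 3 of 6 genes were lower and none higher, with a median of -1.51. OsBZR1, the transcription factor at the end of the pathway, fell from 26.2, 45.6 and 41 to 6.34, 5.05 and 5.61 (log2FC -2.60, SE 0.27, adjusted p = 4.36e-05). TUD1, a ubiquitin ligase of this pathway, fell from 25.6, 45.6 and 38.2 to 8.67, 4.79 and 6.69 (log2FC -2.35, SE 0.31, adjusted p = 1.66e-04), and the synthesis gene OsDWARF4 from 3.04, 3.83 and 3.66 to 0.942, 0.353 and 0.273 (log2FC -2.02, SE 0.38, adjusted p = 0.00147). The co-receptor gene OsBAK1 had a log2FC of -1.0, just short of the threshold. It was called lower with a pseudocount of 0.1, with median ratio scaling and without SNAC1-D replicate 1 or SNAC1-N replicates 2 or 3 (log2FC -1.11 to -1.01).

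In the auxin list 5 of 12 genes rose (41.7%) and 2 fell (16.7%), beside 13.2% and 17.9% over all features. Those with the largest rises inactivate auxin. OsGH3-8, which joins auxin to amino acids, went from 0.801, 0.53 and 0.784 to 18.1, 23.3 and 17.6 (log2FC 4.06, SE 0.22, adjusted p = 8.32e-07) and OsGH3-2 from 1.25, 1.63 and 2.12 to 17.8, 14.3 and 18.5 (log2FC 3.02, SE 0.19, adjusted p = 2.10e-06). DAO, a dioxygenase that oxidises auxin, went from 4.36, 9.84 and 10.3 to 38.9, 48.8 and 41.9 (log2FC 2.42, SE 0.43, adjusted p = 9.62e-04). The response factor gene ARF8 fell from 17.1, 20.5 and 20.9 to 5.18, 3.27 and 2.97 (log2FC -2.24, SE 0.29, adjusted p = 1.33e-04) and the repressor gene OsIAA10 from 65.3, 62.7 and 66.5 to 27.2, 19.4 and 23.1 (log2FC -1.47, SE 0.17, adjusted p = 8.31e-05). In the gibberellin list 3 of 6 genes were lower and 1 higher, and 1 was lower when SNAC1-D replicate 2 or 3 or any SNAC1-N library was left out. The receptor gene OsGID1 rose from 33.7, 60.1 and 58.5 to 132, 161 and 164 (log2FC 1.61, SE 0.26, adjusted p = 5.87e-04). The synthesis genes OsGA3ox2 and GA20ox2 and the response gene OsGASR2 were called lower (log2FC -1.52, -1.06 and -1.09). OsGA3ox2 lost its call without SNAC1-D replicate 3 or SNAC1-N replicates 2 or 3 (log2FC -1.46 to -1.39, adjusted p 0.0522 to 0.0568), GA20ox2 without SNAC1-D replicates 2 or 3 or SNAC1-N replicates 1 or 2 (log2FC -1.01 to -0.81, adjusted p 0.0692 to 0.12), and OsGASR2 without SNAC1-D replicates 1 or 2 or SNAC1-N replicates 1 or 3 (log2FC -1.08 to -0.89, adjusted p 0.0822 to 0.112) or with a replicate block (adjusted p 0.0549).

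For the strigolactones, which limit branching, all 3 genes of the list were called, beside 31.0% over all features. The receptor gene D14 rose from 145, 82.5 and 138 to 329, 388 and 313 (log2FC 1.53, SE 0.29, adjusted p = 0.00142) and its F-box partner D3 from 2.74, 4.51 and 5.95 to 14.3, 18.6 and 16.6 (log2FC 1.84, SE 0.29, adjusted p = 4.81e-04), whereas D53, the repressor that they remove, fell from 35, 26.2 and 14.7 to 6.07, 4.69 and 5.02 (log2FC -2.08, SE 0.32, adjusted p = 4.43e-04). D53 lies in the duplicated end of chromosome 11. In the jasmonate list OsJMT1, a methyltransferase, fell from 11.9, 42.3 and 45.6 to 4.52, 1.93 and 2.94 (log2FC -3.06, SE 0.76, adjusted p = 0.0068). OsbHLH148 rose (log2FC 1.33, adjusted p = 0.0135), with an adjusted p of 0.0542 without SNAC1-D replicate 2. For ethylene the receptor gene ETR3 fell from 9.96, 7.49 and 6.75 to 3.4, 2.18 and 2.67 (log2FC -1.40, SE 0.19, adjusted p = 2.11e-04) and the transcription factor gene OsEIL2 rose from 30.1, 71.6 and 71.3 to 136, 186 and 138 (log2FC 1.49, SE 0.41, adjusted p = 0.0111). OsACS2, an ethylene synthesis gene, was called higher (log2FC 1.25, adjusted p = 0.0411) with overlapping groups and lost its call without SNAC1-D replicates 2 or 3 or SNAC1-N replicates 1, 2 or 3 (log2FC 0.90 to 1.43, adjusted p 0.0501 to 0.157) or in a fit of the 6 SNAC1-OE libraries alone (adjusted p 0.0805).

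Cell wall genes had the lowest median of the 33 lists, -2.61. Of 7 genes, 6 were lower (85.7%) and none higher, beside 17.9% and 13.2% over all features. OsEXPB3, an expansin that loosens walls of growing cells, fell from 150.0, 206 and 208 to 8.31, 0.506 and 1.32 (log2FC -6.21, SE 0.88, adjusted p = 2.59e-04). OsXTH8, an enzyme that cuts and rejoins xyloglucan, fell from 303, 450.1 and 563 to 71.9, 37.8 and 39 (log2FC -3.15, SE 0.41, adjusted p = 1.46e-04). CslF6, the synthase of mixed-linkage glucan, fell from 112, 224 and 222 to 56.2, 16.2 and 25.6 (log2FC -2.61, SE 0.62, adjusted p = 0.00512). OsTBL2, from a family of wall acetyltransferases, fell from 18.4, 38.1 and 35.1 to 2.47, 0.95 and 1.09 (log2FC -3.96, SE 0.52, adjusted p = 1.64e-04), and it lies in the duplicated end of chromosome 11. OsXXT1 fell by a log2FC of -1.06, and its value was above -1 without SNAC1-D replicate 2 or SNAC1-N replicate 3 (log2FC -0.98, adjusted p 0.00537 to 0.00585). In the list for cell cycle and DNA replication 1 gene of 7 was called (14.3%), beside 31.0% over all features. This was OsGRF1, a growth-regulating factor gene, and it rose (0.623, 0.303 and 0.493 to 2.3, 4.65 and 2.76, log2FC 1.90, SE 0.30, adjusted p = 4.56e-04).

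**Figure D4:**
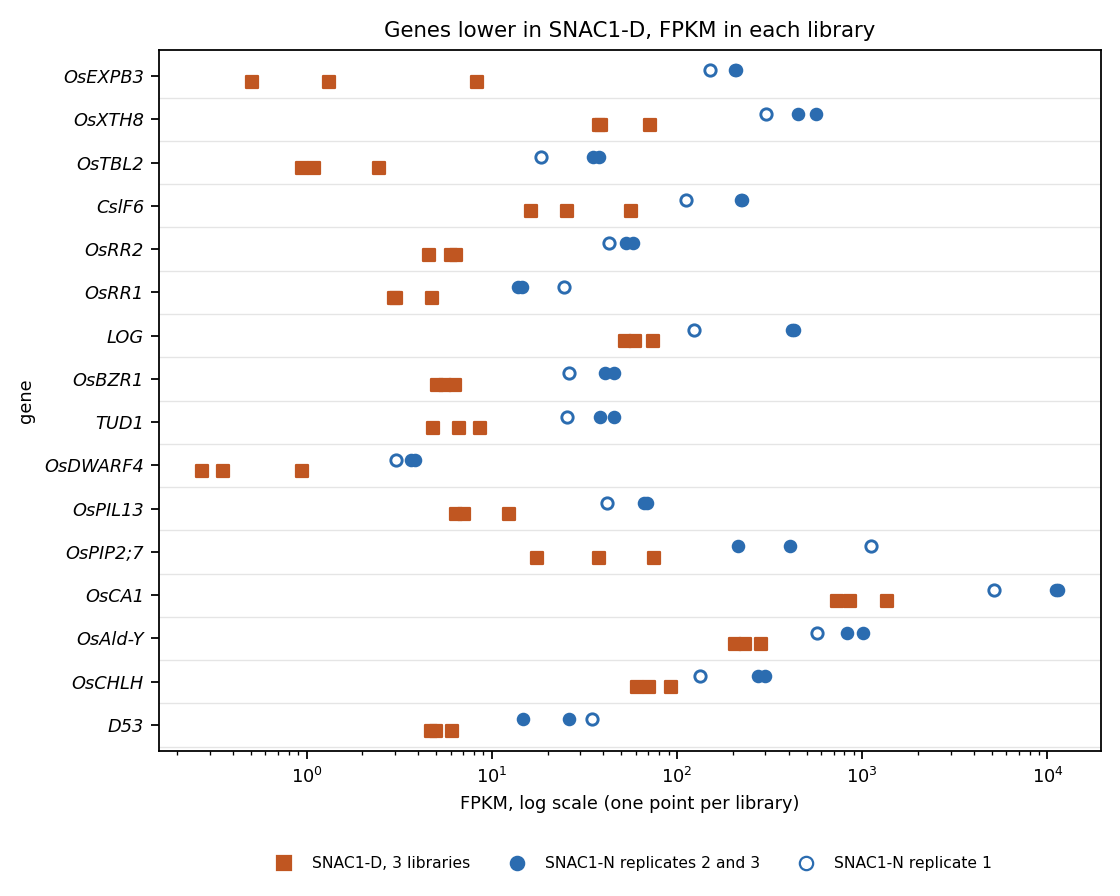
FPKM on a log scale of 16 genes that were lower in SNAC1-D, one point per library, with the symbols of the plot of rising genes. In all 16 the squares lie to the left of every circle, as for OsCA1, whose highest SNAC1-D library (1353 FPKM) is below its lowest SNAC1-N library (5113 FPKM). Some of these genes were named by a rule that asks for groups without overlap.

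In the list for light, clock and flowering 3 of 21 genes were lower (14.3%) and 1 higher (4.76%), beside 17.9% and 13.2% over all features. OsPIL13, a bHLH factor of the phytochrome-interacting family that promotes internode growth, fell from 42, 66.4 and 68.8 to 12.4, 6.39 and 7.1 (log2FC -2.73, SE 0.34, adjusted p = 1.18e-04), and OsDof12 from 58.3, 75.4 and 65.5 to 19.8, 23.3 and 20.6 (log2FC -1.62, SE 0.20, adjusted p = 9.81e-05). OsPIL14 was called lower at a log2FC of -1.03, and its value was above -1 with quantile normalization (-0.96) and without SNAC1-D replicates 2 or 3 (log2FC -0.99 to -0.90, adjusted p 0.00129 to 0.00176). RDD1 was called higher (log2FC 1.80, adjusted p = 0.0496) and lost its call without SNAC1-D replicates 1, 2 or 3 or SNAC1-N replicate 1 (log2FC 1.05 to 2.01, adjusted p 0.065 to 0.158) or in a fit of the 6 SNAC1-OE libraries alone (adjusted p 0.0595). RDD1 also lost its call with a pseudocount of 0.1, without a filter on low values, with median ratio scaling or without a variance trend (adjusted p 0.0503 to 0.0881). Without SNAC1-N replicate 1 the list had 0 higher and 5 lower genes, OsCRY1b and OsPIL11 among them. In the defence list 1 of 14 genes was higher (7.14%) and 3 were lower (21.4%). Without SNAC1-N replicate 1 there were 5 lower, with NH3 and OsCOMT added. OsCEBiP, a receptor for chitin, rose from 25.7, 10.2 and 12.5 to 43.7, 55.6 and 41.7 (log2FC 1.62, SE 0.38, adjusted p = 0.00522). The ubiquitin ligase gene OsPUB44 fell from 82, 60.6 and 48.5 to 17.8, 13.1 and 17.2 (log2FC -1.94, SE 0.35, adjusted p = 0.00117) and the glucanase gene Gns1 from 57.7, 83.9 and 83.8 to 33, 19.1 and 28.1 (log2FC -1.49, SE 0.43, adjusted p = 0.0148), the latter with an adjusted p of 0.0609 without SNAC1-D replicate 2. SPIN6, a regulator of defence, fell (log2FC -1.02, adjusted p = 0.00896), and its value was above -1 without SNAC1-D replicate 2 or SNAC1-N replicates 2 or 3 (log2FC -0.95 to -0.92, adjusted p 0.0327 to 0.038).

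Genes with SNAC1 at their promoter by ChIP-Seq moved in both directions. The study ran ChIP-Seq on SNAC1-N, ZH11-N and ZH11-D, so binding in SNAC1-D was not measured. Its bound genes had a promoter peak in ZH11-D and also in SNAC1-N or ZH11-N. Of those bound genes that carry a published name 476 were tested, 113 were higher (23.7%) and 66 lower (13.9%), beside 13.2% and 17.9% over all features, with a median log2FC of 0.09, beside 0.07 over all features. The counts were 104 and 81 without SNAC1-N replicate 1. The lists by role draw on these bound genes, so the bound genes are not a separate set. The SNAC1TGDs are those among all bound genes, named or not, that were also selected as drought-responsive and regulated by SNAC1. The study took this regulation from a gap between log2FC values. Of 88 tested, 50 were higher (56.8%) and 34 lower (38.6%). The difference between genotypes had an unadjusted p under 0.05 in 2 of the 88 and an adjusted p under 0.05 in 0 (limma). The SNAC1TGDs were selected on these same libraries, so these counts are no independent evidence. Among those with a putative function, the largest rise was that of LOC_Os03g16920, of the DnaK family of chaperones, from 0.65, 3.64 and 2.85 to 372, 509 and 446 (log2FC 7.45, SE 0.45, adjusted p = 1.64e-06). The others were OsHOX24, LOC_Os06g05420 (an expressed protein, log2FC 5.63), LOC_Os02g51930 (annotated as a cytokinin glucosyltransferase, 5.42) and LOC_Os03g14050 (a thaumatin-like protein, 5.14). The largest fall was that of LOC_Os04g46830, annotated with the lipid transfer protein family, from 75.4, 164 and 176 to 1.83, 0.43 and 0.741 (log2FC -6.55, SE 0.75, adjusted p = 6.98e-05). OsEXPB3, LOC_Os06g04870 (a homeobox leucine zipper protein, -5.08), LOC_Os02g43660 (with a plastocyanin-like domain, -4.77) and LOC_Os05g28780 (rich in glycine and cysteine, -4.41) followed.

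Outside the lists, the annexin gene OsANN1, which encodes a calcium-dependent membrane-binding protein, went from 12.5, 23.2 and 27.1 to 391, 585 and 589.9 (log2FC 4.65, SE 0.34, adjusted p = 4.75e-06). OsRING-1, a ring finger gene, went from 1.43, 13.2 and 11.5 to 167, 221 and 168 (log2FC 4.75, SE 0.63, adjusted p = 1.76e-04), and the bHLH gene RAI1, known from rice immunity, fell from 4.19, 6.69 and 7.49 to 0.496, 0.203 and 0.329 (log2FC -2.95, SE 0.35, adjusted p = 8.85e-05). By mean FPKM the largest rise was in the gene that the study names RAMY (LOC_Os01g15270). It went from 529, 663 and 1030.4 to 12765, 21392 and 22593 (log2FC 4.69, SE 0.34, adjusted p = 4.03e-06). The second was LOC_Os11g26790, from 4.71, 6.36 and 7.47 to 7151, 13300.0 and 11567 (log2FC 10.62, SE 0.43, adjusted p = 1.19e-07), and its SNAC1-N libraries were all under 10 FPKM. The largest falls were in LOC_Os01g41710, from 16338, 21621 and 20336 to 8875, 3204 and 3996 (log2FC -1.99, SE 0.46, adjusted p = 0.00449), and LOC_Os12g17600, from 9179, 16199 and 15559 to 1201, 663 and 719 (log2FC -3.99, SE 0.42, adjusted p = 4.03e-05). Without a filter on low values the call of LOC_Os01g41710 ended (adjusted p = 0.445).

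The response of the overexpression line was set beside that of ZH11, where SNAC1 itself rose. ZH11 had 6391 DEGs (32.0%), with 2759 higher (13.8%) and 3632 lower (18.2%). Of these, 2404 higher ones were among the 2633 of SNAC1-OE and 3303 lower ones among the 3568. In SNAC1-OE alone 228 were called higher and 265 lower, and 1 more was called in the opposite direction in ZH11. A call in 1 line alone is not a tested difference. Of those 228 and 265 features, 24 and 12 had an unadjusted p under 0.05 for the difference itself. The log2FC values of leading genes are set side by side: OsPP2C49 with 4.19 in SNAC1-OE and 4.10 in ZH11, OsHOX24 with 6.60 and 6.98, OsRCI2-5 with 6.22 and 6.61, OsEXPB3 with -6.21 and -6.62 and OsRR2 with -3.06 and -3.30. The difference of the responses passed an adjusted p of 0.05 for 4 features (0.02%), and 176 (0.881%) had an unadjusted p under 0.05. The 0.881% is below what a p threshold of 0.05 passes on average when nothing differs. Few calls here therefore do not show that the genotypes respond alike. The fit behind these counts has no block, although same-numbered libraries of the 2 genotypes deviated together. With a replicate block the counts were 1 and 223, and with the block set inside each watering condition 2 and 733. SNAC1 was one of the 4. The others were LOC_Os05g12120, a newly assembled locus (Oryza_sativa_newGene_1947) and LOC_Os01g62540, for which no gene name was at hand.

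All 3 of these loci were at or close to 0 in ZH11 and were transcribed in the overexpression line. LOC_Os05g12120 had an FPKM of 0.145, 0.548 and 0.638 in SNAC1-N and 9.35, 11.9 and 10.3 in SNAC1-D (log2FC 3.58, SE 0.25, adjusted p = 3.92e-06). In ZH11 it was listed at 0 under normal conditions and at 0.0311, 0.0367 and 0.336 under drought. The newly assembled locus went from 1.02, 0.891 and 0.386 to 8.65, 8.34 and 10.9 (log2FC 2.98, SE 0.22, adjusted p = 4.33e-06), and no ZH11 library exceeded 0.0461. LOC_Os01g62540 moved the other way, from 3.16, 4.0 and 4.11 to 0.392, 0.334 and 0.535 (log2FC -2.21, SE 0.18, adjusted p = 7.68e-06), and was listed at 0 in all 6 ZH11 libraries. They passed the filter on low values through the SNAC1-OE libraries alone, and ZH11 groups at 0 add no spread to the shared estimate, so their tests are a description of these libraries. With the block inside each watering condition the adjusted p was 0.121, 0.121 and 0.196. At values this low the pseudocount of 0.5 sets much of the log2FC, and with 0.1 the differences of these 3 loci passed no test while that of SNAC1 did.

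**Figure D5:**
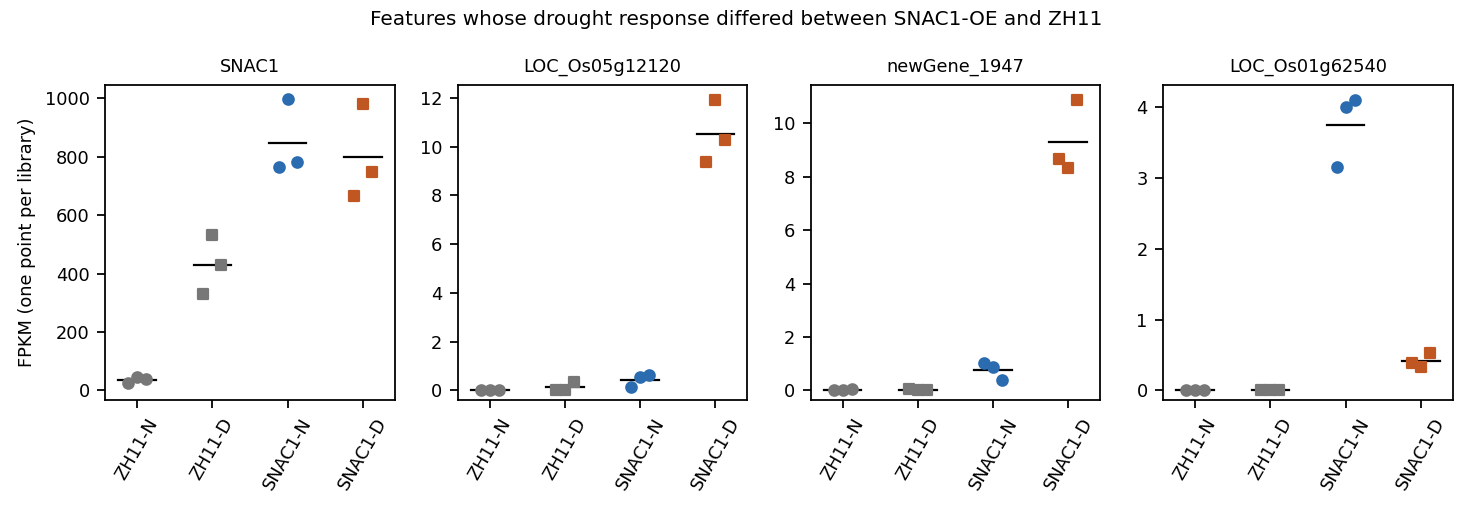
FPKM of the 4 features whose drought response differed between SNAC1-OE and ZH11 at an adjusted p under 0.05, one point per library and a line at each group mean. SNAC1 rises in ZH11 and its groups overlap in SNAC1-OE, and the other 3 loci are between 0 and 0.336 in all ZH11 libraries.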

How the data were processed

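Leaf RNA-Seq libraries of line OE-19 and ZH11 under drought and normal conditions were grouped by their labels, with 3 independent replicates per group by the study's methods. The authors mapped reads to MSU 7.0 and deposited FPKM values for 55490 features (the submitters' processing notes name HISAT2 and StringTie). Fragment counts, strand and treatment of multiply mapped reads are not given in the sources used here, so the precision of a low FPKM value is unknown. At most 12.1% of low values shared a common step between libraries, too few to read relative depth.

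From the deposited FPKM, log2(FPKM + 0.5) was computed for the 19979 features with a mean of at least 1, and limma 3.58.1 in R 4.3.3 was fitted over the 4 groups with a variance trend and no replicate block. Tests were two-sided. SE is limma's standard error. The fit was checked on simulated data with independent noise and 200 of 19979 genes changed. It recovered 60% of them at a planted log2FC of 1.5 and 88.5% at 3, with 5 other calls each. The simulation held no deviations shared between libraries and far fewer changed features than were called here, so it does not cover data like these. Alternatives changed the pseudocount, filter, scaling, trend, block, threshold, fit and libraries.

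Gene names, functions and primers came from the study. Lists by protein description were dropped, because the reference table holds no MSU identifiers. Members and lists were chosen with earlier results of these data known. Named genes were all members of the lists for ABA, NAC factors, chlorophyll breakdown and aquaporins, and the largest changes. From other lists up to 3 DEGs per direction were named, only where SNAC1-D and SNAC1-N libraries did not overlap. Other genes named were chosen after their values were seen. Same-numbered libraries of the 2 genotypes deviated together (r of 0.486 to 0.882 under normal conditions and 0.211 to 0.589 under drought), and those of SNAC1-D and SNAC1-N did not (-0.0992 to -0.0898). Unused per-sample columns numbered 0. The ChIP-Seq tables were not used here.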

Additional observations from a re-analysis of the deposited data

Results flagged for a closer look

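The difference of the drought responses, SNAC1-OE minus ZH11, was -3.61 on the log2 scale for SNAC1, 2.99 for Oryza_sativa_newGene_1947, 3.27 for LOC_Os05g12120 and -2.21 for LOC_Os01g62540. What drew attention was that limma's test of this difference gave adjusted p values of 0.0168 (SNAC1), 0.0168 (the newly assembled locus), 0.0204 (LOC_Os05g12120) and 0.0204 (LOC_Os01g62540). The mean FPKM of SNAC1 rose from 37.2 in ZH11-N to 429.6 in ZH11-D, and was already 847 in SNAC1-N. On that higher base an equal gain in FPKM is a far smaller log2FC. The value of -3.61 therefore does not measure how the native SNAC1 gene responded in SNAC1-OE. Over the alternatives the adjusted p ranged from 0.00122 to 0.0907 for SNAC1, 0.00355 to 0.786 for the newly assembled locus, 0.00355 to 1.0 for LOC_Os05g12120 and 0.00048 to 0.92 for LOC_Os01g62540. A block for the replicate number gave 0.00122 for SNAC1 and 0.0862, 0.0694 and 0.0862 for the other loci in the same order, so SNAC1 alone passed. The other 3 loci were at or near 0 in ZH11, where groups without spread lower the pooled SE. No group of this design holds 4 or more libraries, so single libraries were not tested as outliers.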

How the results depend on the processing

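SNAC1 passed no test between SNAC1-D and SNAC1-N under any alternative, and its log2FC ranged from -0.25 to 0.03 when 1 library was left out. In a fit with a replicate block it was -0.09, and the DEGs numbered 6309. A log2FC threshold of 1.5 left 3965 DEGs, 1542 of them higher and 2423 lower. No threshold gave 10663, 5577 of them higher and 5086 lower. That the total falls with a stricter threshold follows from the rule. The balance of rises and falls does not, and without a threshold it turned from more falls to more rises. Under the other alternatives the DEG count stayed within 1.5 times the main one, at 5480 to 6766 when 1 SNAC1-OE library was left out. The count of features whose response differed between genotypes was 1 with a pseudocount of 0.1, 14 without a filter on low values, 1 with a mean FPKM of at least 5 (fewer features are tested), 2 with quantile normalization, 1 with the replicate block and 2 where the replicate block was set inside each watering condition. It was 0 to 5 when 1 of the 12 libraries was left out, and 1 without SNAC1-D replicate 1. It was 0 without SNAC1-D replicate 2, SNAC1-D replicate 3, ZH11-D replicate 2, ZH11-N replicate 1 or ZH11-N replicate 3, where limma gave 142 to 270 features with an unadjusted p under 0.05. The causes were not tested. Of 142 named genes beside SNAC1, 120 kept their side of the threshold under every alternative and 116 of these also kept their sign. No called gene changed sign, and the genes not called that did were PSY2, RCAR5, OsbZIP72 and OsPIP1;1, as did SNAC1. The unknown depth limits what low FPKM values can show.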

Other observations

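For 3 features, picked after their values were seen, the responses of SNAC1-OE and ZH11 are given although their difference did not pass the adjusted test. OsWRKY45, a factor of induced resistance, had an FPKM of 13.3, 18.3 and 17.1 in SNAC1-N and 12.8, 16.7 and 13.6 in SNAC1-D, against 23.2, 20.1 and 22.4 in ZH11-N and 8.31, 4.86 and 4.97 in ZH11-D. Its log2FC was -0.17 and -1.81, with an unadjusted p of 1.97e-04 and an adjusted p of 0.438 for the difference. The related gene OsWRKY76 had -0.30 and -1.82 (unadjusted p 0.0347, adjusted p 1). LOC_Os12g11550 was the feature called in opposite directions, with 6.35, 23.3 and 0 FPKM in SNAC1-N and 15.8, 107 and 97.8 in SNAC1-D, whose groups overlap, and 14.3, 34.9 and 20.0 in ZH11-N against 0 in all ZH11-D libraries. The adjusted p of that difference was 0.507 in limma.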
